A study of Homo sapiens with 6 samples.

Results

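Epithelial and mesenchymal cell states are set by opposed groups of regulators, and 10 of them are described here, chosen by name from the 20030 gene symbols listed for each library. The repressor group holds SNAI1, SNAI2, TWIST1, TWIST2, ZEB1 and ZEB2, which drive the epithelial-mesenchymal transition (EMT). The epithelial group holds the transcription factors GRHL2 and OVOL1 and the splicing regulators ESRP1 and ESRP2. All 10 symbols were found in all 6 libraries.

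SNAI and ZEB proteins are zinc finger repressors that bind E-box DNA and silence genes of epithelial adhesion such as CDH1, which encodes E-cadherin. TWIST proteins are basic helix-loop-helix factors that act with partners of the E protein family. GRHL2 and OVOL1 oppose these repressors, and ESRP1 and ESRP2 direct the epithelial choice of exons in receptors and adhesion proteins. Ovarian carcinoma cells often combine epithelial and mesenchymal features.

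RNA was sequenced from 6 samples labelled SKOV3, the name of a human ovarian carcinoma line. Of these, 3 libraries were of cells given the vehicle, 5% trehalose, for 24 h, and 3 were of cells given recombinant human CCL20 (rhCCL20), a chemokine, in that vehicle for the same time. The rhCCL20 dose is not given in the sources used here, and nothing in the labels tells whether replicates came from separate cultures, so the p-values rest on a spread that may be technical. The design compares rhCCL20 with vehicle.

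Values are FPKM, fragment numbers divided by the length of the transcript and the size of the library, so levels of different genes can be set side by side. The summed FPKM of a library lay between 301805 and 310080, and the depth is unknown. The library of rhCCL20 replicate 3 stood apart, at 11.7 on the first principal component against -3.96 to -0.74 for the others. Of 12 markers of ovarian carcinoma, 5 reached the filter of 1 FPKM in at least 3 libraries, with the keratin KRT8 at 641 FPKM on average, while the other 7, among them the lineage factor PAX8 at 0.17 FPKM, stayed under 1 FPKM. The name SKOV3 is kept here as labelled. CCR6, the receptor of CCL20, averaged 0.066 FPKM. The transcript of CCL20 itself was at 1.62 ± 0.74 FPKM in vehicle and 0.69 ± 0.53 FPKM after treatment (n = 3 per group, SD). Its log2 fold change, taken on FPKM + 1 like all others in these Results, was -0.64 and did not pass (limma adjusted p = 0.937). The added 1 makes it smaller than the change between these means. In bulk samples such as these, fewer cells of a type and less RNA per cell cannot be told apart.

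The cells expressed all 6 EMT repressors, at low to middle levels among the tested genes, together with ESRP2, while GRHL2, ESRP1 and OVOL1 were listed at or near 0. TWIST2 was the most abundant, at a mean of 8.0 FPKM over the 6 libraries, followed by SNAI1 at 7.04, ESRP2 at 5.00, ZEB2 at 4.68, ZEB1 at 3.35, SNAI2 at 2.93 and TWIST1 at 1.78 FPKM. The ranges over the 6 libraries, with both groups pooled, overlapped between TWIST2 and SNAI1, between ESRP2 and ZEB2, and between SNAI2 and TWIST1. These ranges leave the order of such neighbours open, and differences within a library were not tested. In vehicle ESRP2 lay at 5.11 to 5.33 FPKM and ZEB2 at 4.47 to 4.50 FPKM. With rhCCL20 they lay at 4.45 to 5.19 and 4.69 to 5.17 FPKM. The ranges of SNAI1 and ESRP2, of ZEB2 and ZEB1, and of ZEB1 and SNAI2 were apart. Among the 10263 genes that passed the filter, TWIST2 stood at percentile 47.6 of level and TWIST1 at 9.28, so none of these regulators reached the upper part of the range of levels.

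**Figure D1:**
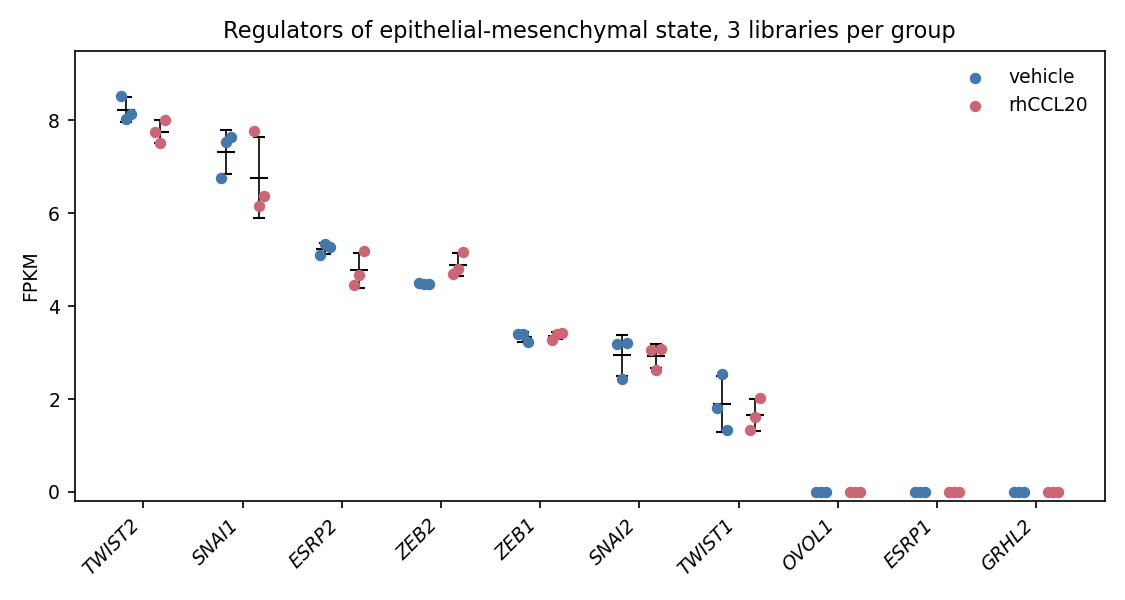
FPKM of the 10 regulators in the 6 libraries, ordered by mean level, with 3 vehicle and 3 rhCCL20 points per gene, and the mean and SD of each group as a dash with bars. ZEB2 and TWIST2 are the genes above 0 whose groups are apart, and OVOL1, ESRP1 and GRHL2 lie at or near 0 in every library.

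None of the regulators passed the test for a response to rhCCL20. Of the 10 genes, 7 passed the filter and were tested, and 0 rose and 0 fell in limma at a Benjamini-Hochberg adjusted p of 0.05. Over all 10263 genes 1 was called (0.00974%), and 0 of the 7 had an unadjusted p under 0.05, against 4.73% of all genes. The 95% intervals of all 7 fold changes in FPKM + 1 lay within 1.5-fold in either direction, and those of 5 lay within 1.2-fold. Of the 7 estimates 2 were higher and 5 lower with rhCCL20. The vehicle and rhCCL20 libraries did not overlap for 2 of the 7, ZEB2 and TWIST2, where 11% of all tested genes did not overlap.

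**Figure D2:**
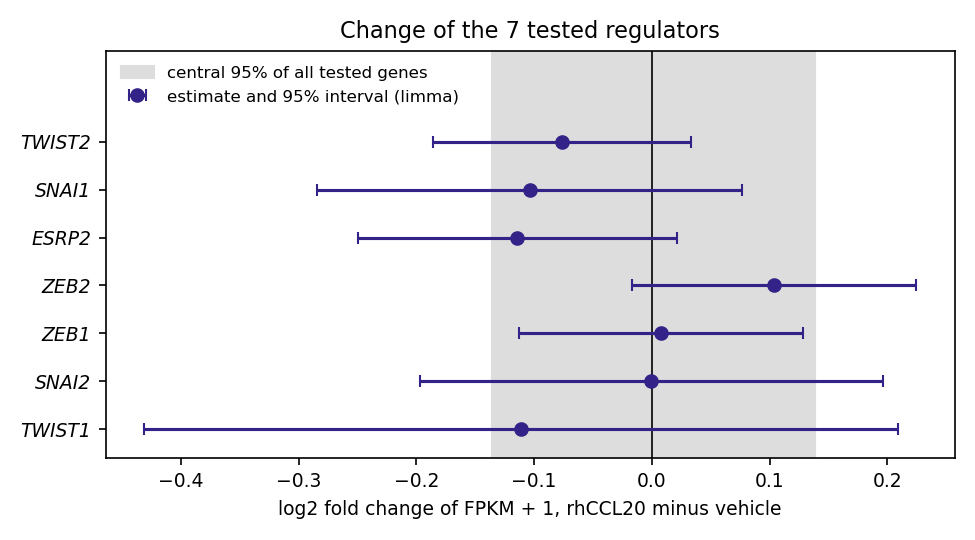
Log2 fold change of FPKM + 1, rhCCL20 minus vehicle, with its 95% interval from limma for the 7 tested regulators, over the central 95% of all tested genes (-0.136 to 0.139, grey). All 7 intervals include 0, and all 7 estimates lie inside the grey band.

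The ZEB factors carry zinc finger clusters at both ends of the protein and recruit the corepressor CtBP. ZEB2 lies on chromosome 2 from 144364364 to 144524583 on the minus strand (GRCh38, GENCODE). It was measured at 4.50, 4.47 and 4.47 FPKM in the vehicle libraries, in replicate order, against 4.69, 4.81 and 5.17 FPKM in the treated libraries. All 3 rhCCL20 libraries lay above all 3 vehicle libraries, with the highest value in the library that stood apart.

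The means were 4.48 ± 0.016 FPKM in vehicle and 4.89 ± 0.25 FPKM after treatment (n = 3 per group, SD). The log2 fold change was 0.10 (SE 0.054, 95% interval -0.02 to 0.22, limma adjusted p = 0.937), so the difference did not pass. Without rhCCL20 replicate 3 the log2 fold change of ZEB2 was 0.0697 (limma adjusted p = 0.879). Myeloid cells and fibroblasts are also known to express ZEB2. The summed level of 9 leukocyte markers was 12.8 to 17.8 FPKM in vehicle and 15 to 17.4 FPKM with rhCCL20. Most of this sum was the lysosomal gene CD68, which averaged 11.1 FPKM and is also found outside leukocytes, and most of its spread came from the lysozyme gene LYZ, at 5.24, 0.69 and 0.47 FPKM in the vehicle and 3.58, 2.92 and 4.27 FPKM in the treated libraries, while the pan-leukocyte gene PTPRC averaged 0.22 FPKM. The median log2 fold change of the 2 tested leukocyte markers, CD68 and LYZ, was 0.45, and LYZ did not pass (limma adjusted p = 0.937) but did without vehicle replicate 1 (log2 fold change 1.53, limma adjusted p = 0.00317). The summed level of 9 fibroblast markers was 9.91 to 10.5 FPKM in vehicle, and with rhCCL20 it began at 9.64 FPKM and overlapped that range, with 3 of the 9 tested and 0 passed. LUM averaged 4.44, COL1A1 1.94 and the receptor PDGFRB 1.93 FPKM, while the collagen COL1A2 and the receptor PDGFRA were each under 0.01 FPKM in every library. The fibroblast gene DCN, under the filter, was at 0.96 ± 0.053 FPKM in vehicle and 0.81 ± 0.074 FPKM after treatment (n = 3 per group, SD), with the groups apart. The summed level of 6 mesothelial markers was 28.2 to 30.7 FPKM in vehicle and 26.6 to 27.9 FPKM with rhCCL20, and that of 6 endothelial markers 0.886 to 1.22 and 0.964 to 1.26 FPKM. The part of these markers in the ZEB2 values was not tested. In the mesothelial list MSLN, also an ovarian marker, averaged 26.3 FPKM and UPK3B 1.77 FPKM, with a median log2 fold change of -0.12 over these 2 tested genes. In the endothelial list CDH5 averaged 0.99 FPKM and PECAM1 0.075 FPKM, and the 1 tested gene, CDH5, had a log2 fold change of 0.01. No gene of the marker lists passed, and all 5 tested ovarian markers, KRT18 at 588 FPKM among them, had lower estimates with rhCCL20, with a median log2 fold change of -0.08. The groups of 3 of these 5 were apart in that direction, where 4.13% of all tested genes were. An unadjusted limma p under 0.05 was reached by 1 of the 5, where 4.73% of all tested genes reached it.

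ZEB1, on chromosome 10 from 31318495 to 31529814 on the plus strand, was the steadiest of the regulators. It was measured at 3.40, 3.41 and 3.22 FPKM in the vehicle libraries, in replicate order, against 3.28, 3.40 and 3.42 FPKM in the treated libraries. The groups overlapped, and the highest library was 1.06 times the lowest. Its log2 fold change was 0.01 (limma 95% interval -0.11 to 0.13; adjusted p = 0.989), and its sign turned under both other scalings, at -0.00324 with quantile normalization and -0.00138 with median-ratio scaling. The residual SD of ZEB1 on the log2 scale was 0.031, at percentile 5.04 among 2042 tested genes within 1.5-fold of its level.

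The ratio of ZEB2 to ZEB1, which does not depend on the scaling factor of a library, was 1.32, 1.31 and 1.39 in vehicle replicates 1 to 3 and 1.43, 1.41 and 1.51 in rhCCL20 replicates 1 to 3. The groups did not overlap in this ratio, with means of 1.34 ± 0.042 and 1.45 ± 0.054 (n = 3 per group, SD). The ratio was chosen after the values were seen and was not tested.

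**Figure D3:**
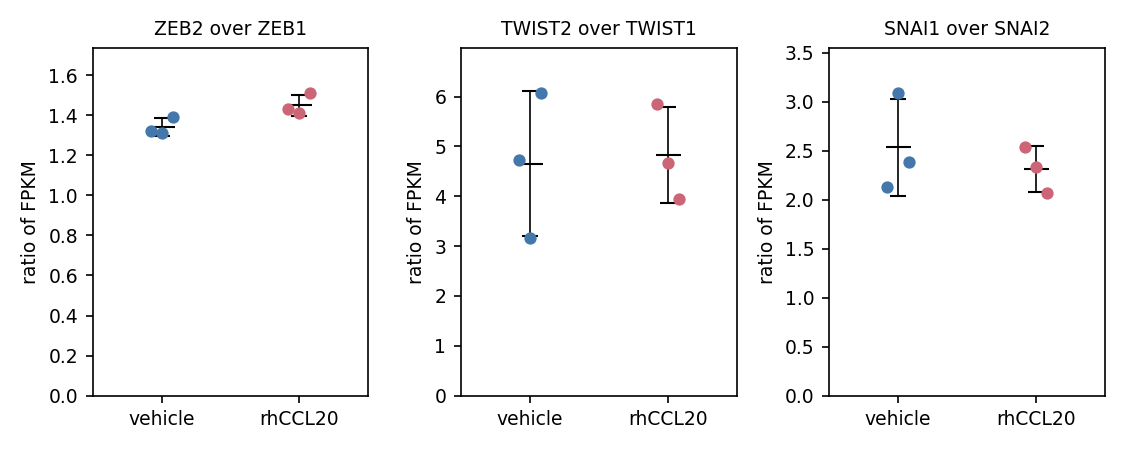
Ratio of FPKM between the related regulators ZEB2 and ZEB1, TWIST2 and TWIST1, and SNAI1 and SNAI2 within each library, with the mean and SD of each group of 3 as a dash with bars and axes from 0. The ZEB ratio lies between 1.31 and 1.39 in vehicle and between 1.41 and 1.51 with rhCCL20, and the other ratios overlap between groups.

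ZEB1 and ZEB2 are textbook targets of the miR-200 family, epithelial microRNAs whose genes the ZEB proteins repress in turn. Mature microRNAs and their host genes are not analysed here. The RefSeq mature sequences (GRCh38.p14), shown because their seeds pair with the ZEB messages, fall into a pair of seed groups within the family and a separate one for miR-205-5p, another epithelial microRNA. Capitals mark the seed, bases 2 to 8.
hsa-miR-200b-3p: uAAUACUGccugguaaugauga
hsa-miR-200c-3p: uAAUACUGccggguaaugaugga
hsa-miR-429: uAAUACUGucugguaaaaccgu
hsa-miR-200a-3p: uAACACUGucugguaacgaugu
hsa-miR-141-3p: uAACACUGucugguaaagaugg
hsa-miR-205-5p: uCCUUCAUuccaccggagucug

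The annotated 3′ UTR of ZEB1 held 6 matches to CAGTATT, the complement of the seed shared by hsa-miR-200b-3p, hsa-miR-200c-3p and hsa-miR-429, and that of ZEB2 held 5. Of 19603 genes with an annotated coding transcript, 13.6% held at least 1 such match. At least 6 were held by 2 genes, ZEB1 included, and at least 5 by 6 genes. Matches to CAGTGTT, for hsa-miR-200a-3p and hsa-miR-141-3p, numbered 3 in ZEB1 and 4 in ZEB2, where 15.3% of genes held at least 1. Among the other 8 regulators, SNAI2 and ESRP1 each held 1 match to CAGTATT, GRHL2 and ESRP1 each held 1 to CAGTGTT, and the rest held 0 of either. ATGAAGG, for hsa-miR-205-5p, was found once, in ZEB1 (9.45% of genes held at least 1). These counts are not adjusted for the length of the 3′ UTR, which was 2549 bases for ZEB1 and 5370 bases for ZEB2. For the other 8 regulators it ran from 706 bases in TWIST1 to 3023 bases in GRHL2. A match is a description of letters and not a site shown to act. The first match to CAGTATT and the first to CAGTGTT in the UTRs of ZEB1 and ZEB2 are shown. They run 5′ to 3′ on the strand of the message, with the match in capitals.
ZEB1 chr10:31527618-31527641, plus strand: attgttttatcttatCAGTATTat
ZEB2 chr2:144389051-144389074, minus strand: cgcactaccatacatCAGTATTtt
ZEB1 chr10:31528031-31528054, plus strand: caaaatcatcagaatCAGTGTTtg
ZEB2 chr2:144389235-144389258, minus strand: tgcaaaaattttgtaCAGTGTTaa

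SNAI and ZEB proteins are known to bind the E-box CAGGTG. RefSeq promoter windows, from 250 bases before to 50 after a start (GRCh38.p14), were at hand for 3 of the 10 regulators, ZEB1, ZEB2 and TWIST2, in 9 windows. CAGGTG on either strand stood in 2 of the 7 ZEB1 windows, and in 0 of the windows of ZEB2 and TWIST2, while 20.6% of all 35116 windows held it. The stretch before the most upstream ZEB1 start is shown because it holds the motif, in capitals, 57 bases before that start.
ZEB1 chr10:31318327-31318416, plus strand: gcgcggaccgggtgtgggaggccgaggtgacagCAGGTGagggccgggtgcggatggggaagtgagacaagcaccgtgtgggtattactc

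The TWIST factors differed in level and in spread. TWIST2, on chromosome 2 from 238848032 to 238910543 on the plus strand, was measured at 8.53, 8.04 and 8.13 FPKM in the vehicle libraries, in replicate order, against 7.76, 7.51 and 8.01 FPKM in the treated libraries. All rhCCL20 libraries lay below all vehicle libraries, though the nearest pair, vehicle replicate 2 and rhCCL20 replicate 3, differed little. The means were 8.24 ± 0.26 and 7.76 ± 0.25 FPKM (n = 3 per group, SD), with a log2 fold change of -0.08 (SE 0.049, 95% interval -0.19 to 0.03, limma adjusted p = 0.937) that did not pass. Groups apart in this direction were found for 4.13% of all tested genes, and in the direction of ZEB2 for 6.88%.

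TWIST1, the relative on chromosome 7 from 19020991 to 19117672 on the minus strand, had the lowest level of the 7 tested genes. It was measured at 1.80, 2.54 and 1.34 FPKM in the vehicle libraries, in replicate order, against 1.33, 1.61 and 2.03 FPKM in the treated libraries. The groups overlapped, and the highest value was 1.91 times the lowest. The residual SD of TWIST1 was 0.25 on the log2 scale, at percentile 97.9 among 1490 tested genes within 1.5-fold of its level, whose median was 0.083. Its log2 fold change was -0.11 (limma 95% interval -0.43 to 0.21; adjusted p = 0.941), and 0.0441 without vehicle replicate 2, the library with its highest value. The ratio of TWIST2 to TWIST1 lay between 3.17 and 6.07 in vehicle and between 3.94 and 5.85 with rhCCL20.

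SNAI1, an inducible repressor with a short-lived protein, lies on chromosome 20 from 49982999 to 49988886 on the plus strand. It was measured at 6.77, 7.54 and 7.64 FPKM in the vehicle libraries, in replicate order, against 7.77, 6.16 and 6.37 FPKM in the treated libraries. The highest library of all was rhCCL20 replicate 1, and the other rhCCL20 libraries lay below every vehicle library. The means were 7.32 ± 0.48 and 6.77 ± 0.88 FPKM (n = 3 per group, SD), with a log2 fold change of -0.10 (limma 95% interval -0.28 to 0.08; adjusted p = 0.937). Leaving out each library in turn gave log2 fold changes of SNAI1 from -0.194, without rhCCL20 replicate 1, to -0.0477, without rhCCL20 replicate 2, with no call.

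SNAI2, which encodes SLUG, was measured at 3.18, 2.44 and 3.20 FPKM in the vehicle libraries, in replicate order, against 3.06, 2.63 and 3.08 FPKM in the treated libraries. Replicate 2 was the lowest in each group, and the group means of 2.94 ± 0.43 and 2.93 ± 0.25 FPKM (n = 3 per group, SD) were nearly equal. The log2 fold change was -0.000325 (limma 95% interval -0.20 to 0.20; adjusted p = 1.00). The gene lies on chromosome 8. The ratio of SNAI1 to SNAI2 lay between 2.13 and 3.09 in vehicle and between 2.07 and 2.54 with rhCCL20.

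Of the 4 epithelial regulators, ESRP2 was expressed. ESRP2, on chromosome 16 from 68229111 to 68238102 on the minus strand, was measured at 5.11, 5.33 and 5.27 FPKM in the vehicle libraries, in replicate order, against 4.45, 4.67 and 5.19 FPKM in the treated libraries. A pair of rhCCL20 libraries lay below the vehicle range, and replicate 3, the library that stood apart, lay within it. The means were 5.24 ± 0.12 and 4.77 ± 0.38 FPKM (n = 3 per group, SD), with a log2 fold change of -0.11 (SE 0.061, 95% interval -0.25 to 0.02, limma adjusted p = 0.937). Without rhCCL20 replicate 3 the log2 fold change of ESRP2 was -0.166 (limma adjusted p = 0.813), and without rhCCL20 replicate 1 it was -0.0737 (limma adjusted p = 0.859).

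ESRP1 and GRHL2 were listed at 0 in all 6 libraries, and OVOL1 at 0 in 5 and at 0.00806 FPKM in rhCCL20 replicate 1. These 3 genes did not reach the filter and were not tested. The exact two-sided permutation p for OVOL1 was 1.00, where 3 libraries against 3 cannot give a p below 0.1. ESRP2 was thus the splicing regulator of its pair with a measurable level, while the depth is unknown and a value of 0 sets no stated limit.

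Relatives of the regulators were mostly scarce. Of 8 genes in this list, 2 were tested and 0 passed, and the median change on the log2 scale was -0.06 beside 0.01 over all tested genes. GRHL1, a relative of GRHL2, averaged 1.30 FPKM and SCX, a helix-loop-helix factor of tendon, 1.17 FPKM, while GRHL3, OVOL2 and SNAI3 each averaged under 0.04 FPKM. Of 15 other EMT transcription factors 6 were tested, 0 rose, 0 fell, and the median log2 fold change stood at 0.05, with FOXC1 at 13.3 and the TWIST partner TCF12 at 7.46 FPKM on average. Of 14 epithelial transcription factors 6 were tested and 0 passed, with a median of 0.06. The zinc finger factor KLF5 averaged 30.5 FPKM and TFAP2A 21.6 FPKM. The pioneer factor FOXA1 was at 1.79 ± 0.19 FPKM in vehicle and 2.18 ± 0.083 FPKM after treatment (n = 3 per group, SD), a log2 fold change of 0.19 that did not pass (limma adjusted p = 0.937).

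Corepressors through which the repressors act covered a wide range of levels, and 10 of 18 averaged at least 10 FPKM. Of the 18 genes 17 were tested, 0 rose, 0 fell, and the median log2 fold change stood at 0.02. The deacetylase HDAC1 averaged 44.8 FPKM and the arginine methyltransferase PRMT5 44.6 FPKM, while the CtBP genes CTBP1 and CTBP2 averaged 6.16 and 7.32 FPKM. TWIST2 averaged more, at 8.0 FPKM. Its range over the 6 libraries, 7.51 to 8.53 FPKM, overlapped that of CTBP2, 6.98 to 7.58 FPKM. SUZ12, a Polycomb subunit, was at 28.6 ± 0.50 FPKM in vehicle and 31.0 ± 1.1 FPKM after treatment (n = 3 per group, SD), which differed by 0.11 on the log2 scale (limma adjusted p = 0.937). The inhibitors of helix-loop-helix pairing ID3 and ID1 averaged 12.5 and 8.95 FPKM, and of the 4 ID genes 2 were tested and 0 passed, with a median of 0.07. Of 22 genes that control the turnover or activity of the repressor proteins 19 were tested and 0 passed, with a median of 0.02. TRIM28 was the most abundant of them at 119 FPKM, followed by COPS2 at 36.6 FPKM, and the ubiquitin ligase adaptor FBXL5 had the smallest p, with a log2 fold change of -0.08.

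Epithelial and mesenchymal genes were both found among the expressed genes. Of 32 epithelial genes that fall in EMT 16 were tested, 0 rose, 0 fell, and the median log2 fold change stood at 0.00, with 8 estimates higher and 8 lower. The desmosomal genes DSP and PKP2 averaged 27.4 and 10.9 FPKM and the mucin MUC1 22.5 FPKM, while 16 genes of the list averaged under 1 FPKM. Of 26 mesenchymal genes 12 were tested and 0 passed, with a median of 0.01. VIM, which encodes vimentin, averaged 340 FPKM and S100A4 199 FPKM, while 14 genes of this list averaged under 1 FPKM, among them FN1, which encodes fibronectin, at 0.42 FPKM.

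The cadherins of the classical switch were both at trace level. CDH1 was measured at 0.20, 0.31 and 0.21 FPKM in the vehicle libraries, in replicate order, against 0.10, 0.10 and 0.13 FPKM in the treated libraries. CDH2, which encodes N-cadherin, was measured at 0.041, 0 and 0.034 FPKM in the vehicle libraries, in replicate order, against 0.065, 0.11 and 0.068 FPKM in the treated libraries. The groups were apart for each, with rhCCL20 below for CDH1 and above for CDH2, and both genes were singled out after their values were seen. Other genes of these lists with groups apart went either way. In the mesenchymal list TGFBI, the secreted protein gene with the smallest p there, was at 5.45 ± 0.16 FPKM in vehicle and lower, at 5.03 ± 0.21 FPKM, after treatment (limma adjusted p = 0.937), and the collagen COL3A1 was at 0.16 ± 0.097 and 0.039 ± 0.016 FPKM (n = 3 per group, SD). In the epithelial list LLGL2 and MAL2 were lower with rhCCL20 and PKP2 and SPINT2 higher. CDH1, CDH2, COL3A1 and MAL2 did not reach the filter, and the share of groups apart was not computed for genes under it. With no filter on low values the log2 fold change of FPKM + 1 was -0.16 for CDH1, 0.08 for CDH2 and -0.15 for COL3A1. Each had a limma adjusted p of 0.91 over 16355 genes. At these levels the added 1 far exceeds the values, so these fold changes understate the relative differences in FPKM. The exact two-sided permutation p of each was 0.1, the smallest that 3 against 3 allows.

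**Figure D4:**
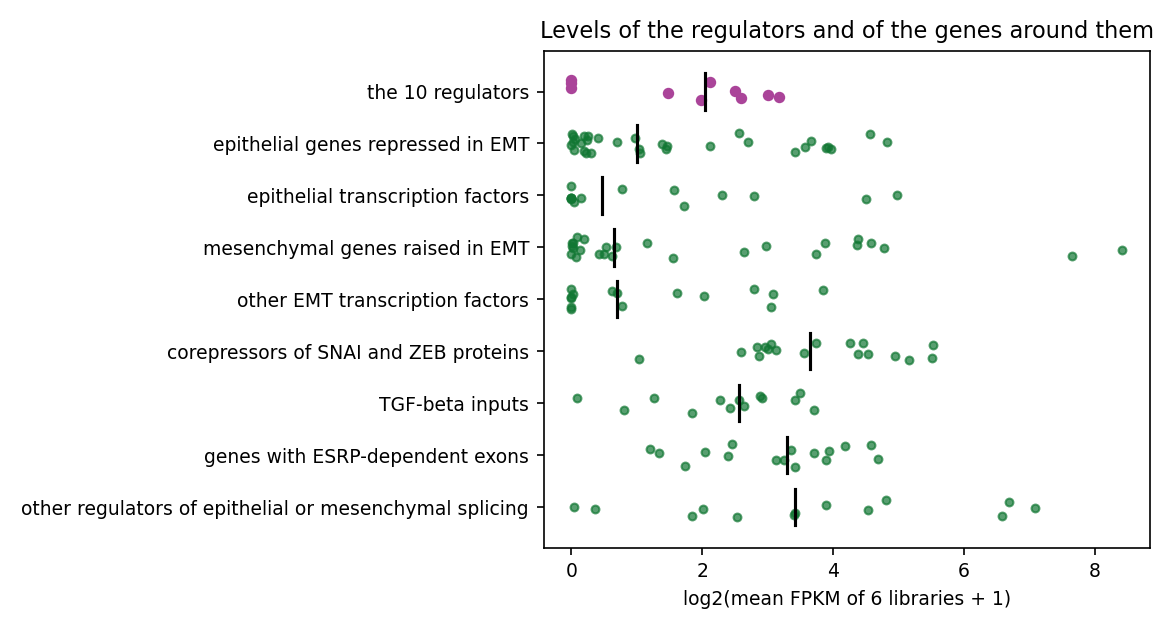
Mean level over the 6 libraries, as log2(FPKM + 1), of the 10 regulators and of the genes of 8 related lists, with each point a gene, vertical position within a row without meaning, and a bar at the median. The corepressors have a median of 11.6 FPKM, the epithelial and mesenchymal genes medians of 1.01 and 0.57 FPKM, and both of these lists run from near 0 to high levels.

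Inputs from TGF-beta, a known inducer of SNAI and ZEB genes, were mostly expressed, and 2 of the 13 listed genes averaged under 1 FPKM. Of 13 genes 11 were tested and 0 passed, and the median change on the log2 scale was 0.05. The receptors TGFBR3 and TGFBR2 averaged 12 and 10.3 FPKM, and the repressor SKIL had the smallest p, with a log2 fold change of 0.11. The common mediator SMAD4 averaged 0.058 FPKM and the inhibitor SMAD7 0.75 FPKM, and both were singled out after their values were seen.

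Genes whose exons depend on ESRP proteins were measured here as whole genes, so isoforms were not resolved. All 16 were tested and 0 passed, and the median change on the log2 scale was 0.03. ARFGAP2 averaged 24.8 FPKM and the adhesion gene CTNND1 22.8 FPKM, and the actin regulator ENAH, first of the list by p, differed by 0.07 on the log2 scale. Of 13 other regulators of epithelial or mesenchymal splicing 11 were tested and 0 passed, with a median of 0.04. PTBP1 averaged 134 FPKM and SRSF1 102 FPKM, and the groups were apart and higher with rhCCL20 for 3 of the 11, PTBP1, MBNL1 and MBNL2, the last of which was named after its value was seen, where 6.88% of all tested genes were apart in that direction. Over all lists, each gene counted once, 128 of 215 genes were tested, 0 passed in limma, 4 had an unadjusted p under 0.05, where 4.73% of all tested genes did, and groups were apart for 9 in the higher and 6 in the lower direction, where 11% of all tested genes were apart. Without rhCCL20 replicate 3, the library that stood apart, the median log2 fold change over all tested genes was -0.00113, against 0.0119 with it. In that fit the median was 0.0014 for the other EMT transcription factors, 0.00667 for the epithelial transcription factors and 0.0038 for the TGF-beta inputs. It was 0.018 for the other splicing regulators, -0.0101 for the corepressors, -0.0122 for the turnover genes and -0.021 for the mesenchymal genes. It was -0.0231 for the genes with ESRP-dependent exons, -0.0154 for the epithelial genes, 0.0872 for the ID genes and -0.0902 for the family relatives.

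Across the 6 libraries, the tested gene whose values followed each regulator most closely was found by Pearson's r on log2(FPKM + 1), as a description over few points. ZEB2 was most like PPP6C, a phosphatase subunit (r = 0.999), and 307 of 10262 genes had an r over 0.9 with it. Both ZEB2, at 5.17 FPKM, and PPP6C, at 22.5 FPKM, were highest in rhCCL20 replicate 3, the library that stood apart. For the other 6 regulators between 45 and 75 genes had an r over 0.9. With 6 libraries such an r also arises between unrelated genes, and the number to expect was not computed. The closest were PMVK for SNAI1 (r = 0.989), OSBPL3 for SNAI2 (r = 0.99), IL17RC for TWIST1 (r = 0.994), YPEL3 for TWIST2 (r = 0.984), RNF185 for ZEB1 (r = 0.99) and ALDH3B1 for ESRP2 (r = 0.994).

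Several of these genes share genome positions with others, and the counting is not stated to use strand. In the GENCODE annotation the ZEB1 gene overlaps the antisense gene ZEB1-AS1 over 1953 bases, and TWIST1 overlaps an antisense gene over 1798 bases. ZEB2 overlaps ZEB2-AS1 over 3500 bases and another antisense gene over 5603 bases. On its own strand ZEB2 overlaps another annotated gene over 2614 bases, and ZEB1 a pseudogene over 261 bases. ESRP2 shares 149 bases with the protein-coding gene NFATC3 on the opposite strand. On its own strand it overlaps a gene annotated as sense intronic over 823 bases. These lengths are of whole gene spans, introns included, so they do not show whether exons are shared. Where exons on opposite strands are shared, reads cannot be told apart without strand. The effect on the values of these 4 genes was not tested. SNAI1, SNAI2 and TWIST2 overlap no other annotated gene.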

How the data were processed

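The authors deposited FPKM values, per the file headers, with 1 value per gene symbol and library. HTSeq, Cufflinks, HISAT2 and Trimmomatic are listed in the submitters' processing notes beside GRCh38, with no version or role, and the RNA was prepared with Trizol and an Illumina TruSeq kit per the labels' protocols. The depth is unknown, so no counting intervals are given.

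The test was limma 3.58.1 in R 4.3.3, run on every gene that reached 1 FPKM in 3 or more libraries (eBayes with a trend), on the log2(FPKM + 1) scale, which understates the change of low genes, with group as the only term and Benjamini-Hochberg adjustment over all 10263 genes. The procedure was tested on simulated data. Alternatives were changes of pseudocount, filter, scaling and eBayes options, a replicate block, and fits without 1 library.

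The regulators and lists were chosen with earlier results of these data known. Regulators were left out of the other lists. The genes named are the 10 regulators, CCL20 and its receptor, and of each list those past the threshold, or else the 2 most abundant and the 1 with the smallest p. Others were named after their values were seen. Positions and 3′ UTRs are from GENCODE 29 (GRCh38), with 1 transcript per gene, chosen among basic ones with a complete 3′ end as that with the longest coding sequence and then the longest 3′ UTR.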

Additional observations from a re-analysis of the deposited data

How the results depend on the processing

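Under all 15 alternatives 0 of the 10 regulators passed the threshold in limma. Of 101 alternative fold changes of single regulators, 91 kept their direction and side of the threshold and 10 turned sign, all without a call and with a smallest adjusted p of 0.716 over all of them. The eBayes options, the replicate block and the filters left each such estimate unchanged, so no sign could turn there. Only the p-values could move in these settings. SNAI2 (-0.000325) turned to 0.00127 and 0.000354 with pseudocounts of 0.1 and 0.5, and lay between -0.0953 and 0.0544 when each library was left out. ZEB1 (0.00789) turned to -0.00324 with quantile normalization and -0.00138 with median-ratio scaling, and lay between -0.0132 and 0.0225 with a library left out. TWIST1 lay between -0.254 and 0.0441 with a library left out, where 0.0441 was without vehicle replicate 2 and -0.254 without vehicle replicate 3. An unadjusted p under 0.05 was reached by 1 regulator with quantile normalization, without rhCCL20 replicate 1 and without rhCCL20 replicate 3, and by 0 with the other alternatives. The filter of 5 FPKM left 3 regulators tested. Over all genes, the 1 call became 0 with no filter (16355 genes tested, 861 at an unadjusted p under 0.05) and 1 to 3 with a library left out, 3 without vehicle replicate 1. In the lists 0 to 1 genes passed with a library left out, the 1 being LYZ without vehicle replicate 1. Of 237 list medians under alternatives 229 moved by less than the spread between replicates. The eBayes options and the replicate block could not move a median, since they left every fold change unchanged. With no filter the median was -0.0274 for the ovarian (-0.0806 with the filter), 0.0311 for the leukocyte (0.455) and -0.049 for the mesothelial markers (-0.119), and with 5 FPKM 0.0395 for the leukocyte markers, which lay between 0.272 and 0.773 with a library left out. With a library left out it lay between -0.0655 and 0.0171 for the fibroblast markers, between 0.00667 and 0.119 for the epithelial transcription factors, and between -0.0231 and 0.0504 for the genes with ESRP-dependent exons. The median of the ID genes (0.0726) was 0.00202 without vehicle replicate 3 and 0.15 without vehicle replicate 2, and that of the family relatives (-0.058) lay between -0.105 without vehicle replicate 2 and -0.00843 without vehicle replicate 3. Fewer or more genes tested and fewer samples are part of these settings, and other causes were not tested. With the replicate block 0 regulators and 1 gene passed. Deviations from the group means gave r of -0.1, 0.035 and 0.097 between libraries of the same number, so these were not taken as pairs. Since depth is unknown, values near 0 are read with care.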
